A study of Oryza sativa with 45 samples.

Results

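The change from 4 to 8 d of growth underwater was followed in IR64(SUB1), whose 5 libraries were taken by genotype and age alone from the 45 libraries of the series: 2 at 8 d (replicates 2 and 3) and 3 at 4 d (replicates 1, 2 and 3). IR64(SUB1) is a near-isogenic line of the indica rice cultivar IR64 that carries the SUB1 region of the landrace FR13A with the SUB1A-1 allele, and like IR64 it lacks TPP7, the trehalose-6-phosphate phosphatase gene of the AG1 locus. It was set beside 3 other lines at the same ages: IR64(AG1,SUB1), which has both introgressions (3 libraries at 8 d and 2 at 4 d), IR64(AG1), which has TPP7 alone (3 and 3), and IR64 with neither (3 and 3). Dry seeds of all lines were sown in soil and kept underwater in aquaria in a nethouse under ambient light, and no library came from plants grown in air, so age and time underwater cannot be told apart. Each library is strand-specific bulk RNA-seq of pooled embryo, coleoptile and shoot tissue from 45 seedlings, the SUB1 genotype is represented by a single introgression line, and the labels call the tissue coleoptile on both days. The labels do not say that replicates came from separate sowings, although the study's methods describe triplicate experiments, and the p-values measure the spread between these libraries.

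Rice is unusual among cereals in that its coleoptile, the hollow sheath around the first leaf, can lengthen with very little oxygen, mostly by cell expansion and fuelled by the starch of the endosperm through glycolysis and ethanol fermentation. Once the shoot reaches light and oxygen, leaves and roots grow, cell division resumes and etioplasts mature into chloroplasts. SUB1A encodes an ethylene-responsive transcription factor which, in older submerged plants, restrains elongation and the use of carbohydrate reserves.

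SUB1A itself was examined as a check of the labels. Its entry had 1678 and 1447 reads at 8 d, against 1, 0 and 0 reads at 4 d, which is 70.8 and 49.6 CPM (read counts scaled to one common library size, after adjustment of the sizes by edgeR's TMM method) at 8 d and 0.0520, 0 and 0 CPM at 4 d. Both 8 d libraries stood above all 4 d libraries, and the ratio of the counts, scaled to library size, was 2713 with an exact 95% binomial interval of 487 to 1.07e+05, which covers counting error only (FDR = 6.95e-13; FDR is the Benjamini-Hochberg adjusted p of edgeR's quasi-likelihood test). The entry does not separate the alleles: at 8 d it averaged 53.4 ± 18.7 CPM in IR64(AG1,SUB1), and 0.849 ± 1.07 CPM in IR64, which carries only SUB1A-2 (SD, n = 3 each). At 4 d it was below the floor of 3 reads in all 4 lines, so it checks the 8 d label and not the 4 d label. The 8 d check sets IR64(SUB1) apart from IR64 but not from IR64(AG1,SUB1), where the level was similar.

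The total counts were 20759859 and 24657341 at 8 d, against 22143298, 13199636 and 17641355 at 4 d. Correlations of log2 CPM were 0.985 between the 8 d libraries and 0.971 to 0.983 among the 4 d libraries, against 0.814 to 0.828 between the days. In the 5 libraries, replicates of a day differed by more than sampling noise (chi-square per gene of 5.74 to 12.3). A count of 3 reads corresponds to 0.127 CPM or less at 8 d and 0.267 CPM or less at 4 d. The 100 genes with the most reads took 15.9% to 17.2% of the counts at 8 d, against 28.2% to 29.4% at 4 d.

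Between the days, a large share of the measured transcriptome changed. Of 26180 genes tested, 6269 (23.9%) rose and 2910 (11.1%) fell, where calls are limited to genes with FDR < 0.05 that moved more than 2-fold (log2 change beyond 1 or -1). Among the genes that rose the median log2 change was 3.02, with 4405 above 4-fold, and the genes that fell had a median of -1.64, with 1088 above 4-fold. The values at 8 d did not overlap those at 4 d for 6245 of the genes that rose and 2853 of those that fell. These genes were called from the same values, and the share over all genes tested is not given here. Lack of overlap is therefore no separate support, also where it is given for single genes below. Genes that rose took 22.0% to 22.3% of the counts at 8 d, against 3.04% to 3.15% at 4 d. Genes that fell took 11.8% to 13.0% at 8 d, against 40.1% to 40.8% at 4 d. Reads were absent from all 3 libraries of 4 d for 1080 of the genes that rose, and absent from both 8 d libraries for 85 of those that fell. The median over all genes tested was 0.05. Scaling by total counts instead of TMM moved that median to 0.48, and the calls then split into 8050 rises and 1581 falls (83.6% higher, against 68.3% with TMM), so changes are given relative to the bulk of the transcriptome.

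For the genes that fell, the 8 d libraries were not equally far from 4 d. Of these genes, 87 were more than 2-fold higher in replicate 2 than in replicate 3, and 16 were more than 2-fold higher in replicate 3. For the genes that rose the counts were 37 and 32. Of the genes that fell, 59.5% had their value closer to the 4 d level in replicate 2, against 48.5% of the genes that rose. Without replicate 2 the comparison of the days called 8490 genes, and without replicate 3 it called 8399, against 9179 with both.

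Genes were grouped by descriptions and functional categories that the study's supplementary tables give to 3237 of the genes tested. These described genes moved more than the rest, since 35.2% of them rose and 15.4% fell. For 1830 of them the description came only from a table of genes that the study selected as differing between genotypes in these same libraries, and 42.8% of those rose and 18.9% fell. Among the 1407 described without such a selection, 25.3% rose and 10.9% fell. A group's counts are therefore not independent evidence of its direction. The plot of the share called in each group sets them against the shares over all genes tested.

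**Figure D1:**
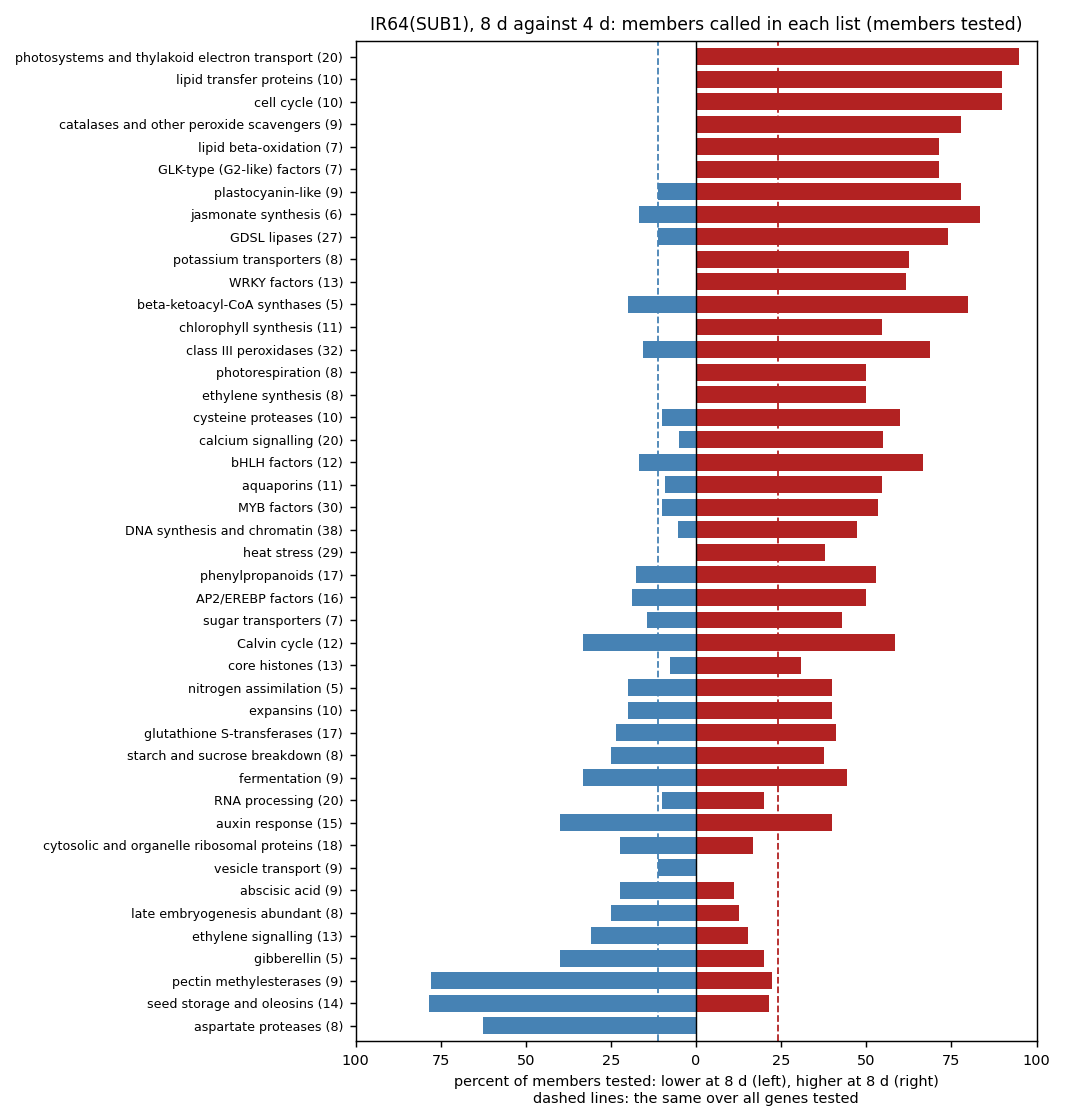
Percent of the members tested in each group that were higher at 8 d (red, right) or lower at 8 d (blue, left) in IR64(SUB1), for the 44 groups with at least 5 members tested; the number of members is in brackets and the dashed lines mark 23.9% and 11.1%, the shares over all 26180 genes. Photosystem genes stand at the top with 19 of 20 higher, and pectin methylesterases (7 of 9 lower), seed storage genes (11 of 14 lower) and aspartate proteases (5 of 8 lower) stand at the bottom.

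The markers of tissue placed more than coleoptile in the harvest. The summed level of 4 chlorophyll a/b-binding genes, which mark green tissue, was 2388 to 3498 CPM at 8 d, against 8.42 to 14.6 CPM at 4 d, and all 4 rose. All 3 silicon transporter genes rose, with sums of 34.9 to 48.3 CPM at 8 d and 1.25 to 2.93 CPM at 4 d. The 2 planned as root markers, an influx channel and an efflux transporter, were at 0 in every 4 d library. OS06G0228200, a channel related to the influx channel, made up the whole 4 d sum and is not taken as a root marker. The 4 genes of the root-specific RCc3 type also rose, with sums of 645 to 738 CPM at 8 d and 17.9 to 29.7 CPM at 4 d; 1 of these was at 0 in every 4 d library, and another, OS04G0554500, was not called without 8 d replicate 2 (1.11, FDR = 0.111). Endosperm and embryo were represented by 14 storage protein and oil body genes, of which 3 rose and 11 fell, with sums of 209 to 227 CPM at 8 d and 471 to 671 CPM at 4 d; 2 were at 0 at 8 d and 1 at 4 d. Most of the 8 d sum came from 1 gene that rose, OS01G0111900, with 194 and 175 CPM at 8 d and 92.6, 95.3 and 85.2 CPM at 4 d. The sums therefore understate the fall of the other members. The KNOX gene OS01G0302500, a homeobox gene of the shoot meristem, had 18.4 and 14.8 CPM at 8 d and 37.3, 33.2 and 37.5 CPM at 4 d (log2 change -1.12 ± 0.19, estimate ± SE as throughout), a fall that missed the fold threshold with total counts (-0.69), with 5 counts added (-0.91) and without 8 d replicate 3 (-0.97). In bulk tissue, more cells of a type and more RNA per cell cannot be told apart, and the part of the changing tissue make-up in each result below was not tested.

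The silicon transporters can be read library by library. OS02G0745100, an influx channel of the NIP aquaporin family that loads silicic acid into roots in rice, had 26.6 and 18 CPM at 8 d and no read at 4 d, which is at least 83.7-fold higher against the floor of 3 reads per library. OS06G0228200, a channel of the same family, had 18.1 and 15.7 CPM at 8 d, against 1.25, 2.93 and 1.37 CPM at 4 d. The efflux transporter OS03G0107300 was near the limit of detection, with 3.63 and 1.13 CPM at 8 d and no read at 4 d. For all 3, both 8 d libraries exceeded every 4 d library.

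Photosystem genes rose almost without exception. Of the genes for photosystems and thylakoid electron transport, 19 of 20 rose and 0 fell, with a median log2 change of 6.76 (6.29 with the undetected members at their bounds). OS01G0600900, an antenna protein of photosystem II, had 1659 and 1130.4 CPM at 8 d, against 0.104, 0 and 0.0650 CPM at 4 d, a ratio of counts of 20912 (95% interval 7156 to 1.01e+05). A second antenna gene, CAB (OS01G0720500), was already detected at 4 d, with 1402 and 924 CPM at 8 d and 6.65, 9.69 and 11.3 CPM at 4 d (log2 change 6.99 ± 0.49, FDR = 6.26e-15). In each antenna gene, 8 d replicate 2 was the higher of the 8 d libraries and both stood far above 4 d. Antenna genes of photosystem I and the minor complexes moved with them: OS02G0197600 had 343 and 269.6 CPM at 8 d and 0.0520, 0 and 0.325 CPM at 4 d, and OS04G0457000, encoding CP24, had 93.4 and 63.8 CPM at 8 d and 1.61, 0.178 and 2.93 CPM at 4 d. Of the reaction centre proteins, PsaO of photosystem I (OS04G0414700) had 266 and 194 CPM at 8 d and no read at 4 d, at least 864-fold higher. PsbX of photosystem II (OS03G0343900) had 162 and 111 CPM at 8 d, likewise with no read at 4 d (at least 511-fold). The extrinsic protein of the oxygen-evolving complex, which stabilises the manganese cluster that splits water (OS01G0501800), had 1004 and 798 CPM at 8 d and 0.0520, 0.356 and 0.130 CPM at 4 d, a log2 change of 12.46 ± 0.46.

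Genes of carbon fixation divided. In the Calvin cycle group 7 of 12 rose and 4 fell, with a median of 5.26. The rises included 2 entries in the category of plastid glyceraldehyde-3-phosphate dehydrogenase, which reduces the first product of fixation. OS03G0129300 had 247 and 200.4 CPM at 8 d and 0.0520, 0.178 and 0 CPM at 4 d (ratio of counts 3386, interval 1158 to 16421), and OS04G0459500 had 463 and 363 CPM at 8 d and 0.883, 0.80 and 0.975 CPM at 4 d (log2 change 8.84 ± 0.38). Chloroplast phosphoribulokinase (OS02G0698000), which regenerates the carbon dioxide acceptor, had 90.6 and 76.6 CPM at 8 d and 0.208, 0 and 0 CPM at 4 d. The falls include an enzyme of the cytosol. Cytosolic triosephosphate isomerase (OS01G0147900), which interconverts the triose phosphates, had 1470.1 and 1265 CPM at 8 d and 4814, 5108 and 4755 CPM at 4 d (log2 change -1.84 ± 0.13, FDR = 8.72e-15). OS04G0596900, annotated only as a member of the phosphoribulokinase and uridine kinase family, had 7.35 and 5.08 CPM at 8 d and 235, 243 and 258 CPM at 4 d. Cytosolic triosephosphate isomerase works in glycolysis, although the categories place it here.

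No gene of chlorophyll synthesis fell. Of the genes for chlorophyll and haem pigments, 6 of 11 rose and 0 fell, with a median of 1.93. The H subunit of magnesium chelatase (OS03G0323200), which commits protoporphyrin to chlorophyll, had 486 and 362 CPM at 8 d and 44.9, 42.8 and 45.1 CPM at 4 d. GUN4 (OS11G0267000), which stimulates that chelatase, had 76.3 and 58.4 CPM at 8 d and 4.0, 3.38 and 3.25 CPM at 4 d (log2 change 4.23 ± 0.28, FDR = 1.77e-15). The cyclase subunit OS01G0279100, which closes a further ring of the pigment, had 636 and 485 CPM at 8 d and 27.6, 33.9 and 26.5 CPM at 4 d. All 3 were detected at 4 d, unlike the photosystem genes at 0.

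For photorespiration, which salvages the product of the oxygenation reaction of Rubisco, 4 of 8 rose and 0 fell (median 1.95). Peroxisomal hydroxypyruvate reductase (OS02G0101500) had 41.9 and 33.8 CPM at 8 d and 0.156, 0.356 and 0 CPM at 4 d, and OS08G0502700, a pyridoxal phosphate-dependent transferase of this group, had 94.3 and 83.8 CPM at 8 d and 1.92, 1.87 and 1.30 CPM at 4 d (log2 change 5.71 ± 0.27). Glycolate oxidases, which make hydrogen peroxide in the peroxisome, did not move as one. GLO1 (OS03G0786100) had 12.9 and 14.1 CPM at 8 d and 0.312, 0.622 and 0.715 CPM at 4 d (log2 change 4.67 ± 0.43), whereas GLO3 (OS04G0623500) had 22.6 and 22.8 CPM at 8 d and 41.9, 36 and 39.9 CPM at 4 d (log2 change -0.79 ± 0.20, FDR = 9.52e-04, under the fold threshold). The mitochondrial aminomethyltransferase OS04G0623800 of the glycine cleavage system had 96.8 and 77.2 CPM at 8 d and 67.4, 55.5 and 61.6 CPM at 4 d, also under the fold threshold (0.50 ± 0.15). The chloroplast glutamine synthetase OS04G0659100, which reassimilates the ammonium released there, had 217 and 184 CPM at 8 d and 8.05, 8.27 and 9.23 CPM at 4 d (log2 change 4.56 ± 0.25). In the group of transcription factors of the GLK (G2-like) type, whose founding members drive chloroplast development, 5 of 7 rose and 0 fell.

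**Figure D2:**
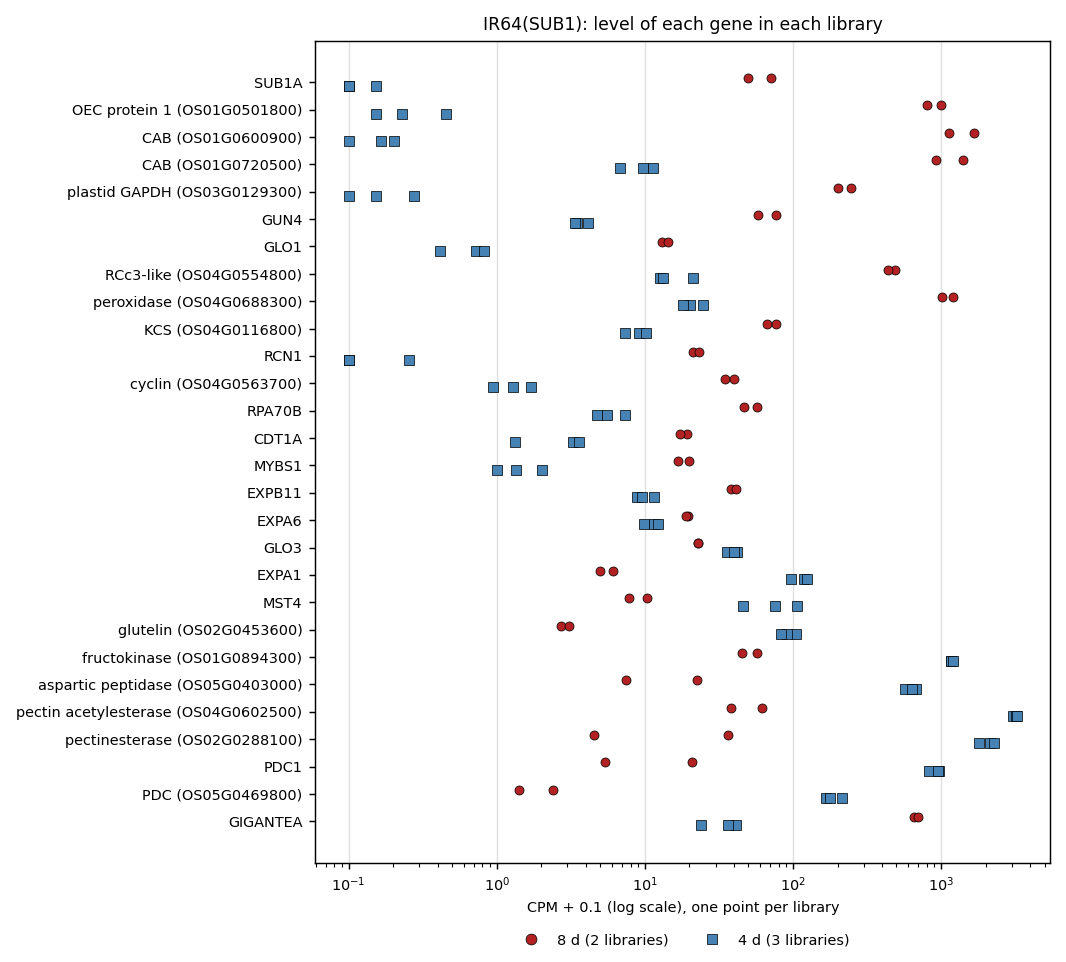
CPM of 28 genes in each of the 5 IR64(SUB1) libraries, on a log axis after adding 0.1; red circles are the 2 libraries at 8 d and blue squares the 3 at 4 d. No gene shown has overlapping days, and the 8 d libraries differ most from each other for PDC1 and the pectinesterase OS02G0288100.

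Genes of the plant surface and the outer cell walls formed a second large set of rises. Of the GDSL lipases, a family with members that assemble cutin, 20 of 27 rose and 3 fell, with a median of 5.56 (2.63 with the undetected members at their bounds). OS01G0216000 had 22.6 and 28.7 CPM at 8 d and no read at 4 d, at least 96.2-fold higher. OS01G0215500 of the same family had 13.8 and 10.7 CPM at 8 d, also with no read at 4 d (at least 46-fold). The family was not uniform, and OS02G0740400 had 90.7 and 63.3 CPM at 8 d and 354, 328 and 294 CPM at 4 d (log2 change -2.08 ± 0.23). Of the beta-ketoacyl-CoA synthases, which elongate fatty acids for wax, cutin and suberin, 4 of 5 rose and 1 fell. OS04G0116800 had 67.1 and 77 CPM at 8 d and 8.99, 7.20 and 10.1 CPM at 4 d (log2 change 3.03 ± 0.29). OS02G0731900 had 35.1 and 34 CPM at 8 d and 1.45, 0.622 and 1.43 CPM at 4 d, and OS06G0262800, similar to the wax elongase CUT1 of Arabidopsis, had 1.06 and 1.30 CPM at 8 d and 1 read in all at 4 d (ratio of counts 54.7, interval 9.47 to 2194). For all of these, the days did not overlap.

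RCN1 (OS03G0281900), an ABC transporter that deposits suberin in the outer root layers, had 21.1 and 23.1 CPM at 8 d and 0.156, 0 and 0 CPM at 4 d, a ratio of counts of 339 (95% interval 116 to 1649, FDR = 4.92e-13). Of the lipid transfer proteins, 9 of 10 rose and 0 fell, with a median of 5.43 (4.06 with the undetected members at their bounds). Among them were the root-specific RCc3 proteins. OS04G0554800 had 489.5 and 437 CPM at 8 d and 12.5, 21.2 and 13.2 CPM at 4 d, and OS02G0662000 had 232 and 198 CPM at 8 d and 1.82, 3.02 and 0.455 CPM at 4 d. OS04G0554800 lies in a run of similar genes, among which reads could be split, so its own level is uncertain. The root markers above rose with this set.

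Class III peroxidases, which cross-link wall polymers or loosen them with radicals, were numerous among the rises. In this family 22 of 32 rose and 5 fell, with a median of 3.57 (3.53 with the undetected members at their bounds). OS04G0688300 had 1203 and 1019 CPM at 8 d and 20.1, 18 and 24.5 CPM at 4 d (log2 change 5.73 ± 0.28, FDR = 3.47e-19). OS05G0134400 had 1018 and 1071 CPM at 8 d and 54.6, 60.6 and 48.5 CPM at 4 d. OS05G0135500 had 29.2 and 29.7 CPM at 8 d and no read at 4 d, at least 110.4-fold higher. The cellulose synthase OS01G0750300 had 68.9 and 69.6 CPM at 8 d and 5.71, 3.47 and 4.29 CPM at 4 d (log2 change 3.91 ± 0.25), and OS05G0217700, a secreted protein with a BURP domain, had 97.4 and 107 CPM at 8 d and no read at 4 d (at least 383-fold). Each of these genes was higher in both 8 d libraries than in any 4 d library.

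The phenylpropanoid group was divided, with 9 of 17 higher and 3 lower. Cinnamoyl-CoA reductase, the entry step to lignin monomers, fell in 3 entries, of which OS02G0811400 was named as one of the largest falls and is not counted in the group. OS02G0811800 had 383 and 207 CPM at 8 d and 4613, 4696 and 4179 CPM at 4 d (log2 change -3.93 ± 0.67), OS02G0811400 had 29.6 and 13.2 CPM at 8 d and 1059.9, 1079 and 1081 CPM at 4 d (-5.66 ± 0.61), and OS02G0808800 had 23.1 and 11.4 CPM at 8 d and 781, 767 and 795 CPM at 4 d (-5.51 ± 0.63). The cinnamyl alcohol dehydrogenase OS04G0612700, which acts next, had 37.2 and 14.5 CPM at 8 d and 929, 807 and 954 CPM at 4 d (-5.12 ± 0.57, FDR = 8.33e-10). For all 4, replicate 2 was the nearer of the 8 d libraries to the 4 d level.

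Enzymes acting on pectin fell. Of the pectin methylesterases, whose products stiffen or loosen the wall, 2 of 9 rose and 7 fell, with a median of -3.38. OS02G0288100 had 36.4 and 4.46 CPM at 8 d and 1798, 2143 and 2261 CPM at 4 d (log2 change -6.67 ± 0.72), and its 8 d libraries differed more than 2-fold. OS01G0788400 had 30.4 and 10.2 CPM at 8 d and 308, 311 and 309 CPM at 4 d, and OS01G0234300 had 1.69 and 1.34 CPM at 8 d and 65.6, 82.6 and 74.8 CPM at 4 d. The pectin acetylesterase OS04G0602500, which removes acetyl groups from pectin, had 61.4 and 37.9 CPM at 8 d and 3047, 3213 and 3254 CPM at 4 d (log2 change -6.00 ± 0.27, FDR = 4.79e-20).

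Expansins, which let walls yield during growth, moved in both directions, with 4 of 10 higher and 2 lower (6 and 2 with total counts). EXPA1 (OS04G0228400) had 5.95 and 4.91 CPM at 8 d and 97.5, 119 and 125 CPM at 4 d (log2 change -4.39 ± 0.35, FDR = 1.48e-13). EXPB11 (OS02G0658800) had 38.2 and 41.1 CPM at 8 d and 11.4, 8.80 and 9.49 CPM at 4 d (log2 change 1.99 ± 0.30, FDR = 3.48e-07). OS02G0639500, similar to EXPB16, had 6.0 and 4.22 CPM at 8 d and 1 read in all at 4 d (ratio of counts 230.1, interval 40.9 to 9122). EXPA6 (OS03G0336400) had 19.3 and 18.8 CPM at 8 d and 9.82, 11.5 and 12.2 CPM at 4 d, a change of 0.78 ± 0.27 that was under the fold threshold with TMM and over it with total counts (1.202). OS01G0823100, EXPA2, had 80.9 and 92.8 CPM at 8 d and 39.3, 52.8 and 36.9 CPM at 4 d, and its log2 change of 1.02 ± 0.27 dropped under the threshold without 4 d replicate 1 (0.96), 4 d replicate 3 (0.92) or 8 d replicate 3 (0.92).

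Groups of the cell cycle, DNA synthesis and chromatin differed in the share of members that rose. In the cell cycle group 9 of 10 rose and 0 fell, with a median of 2.52; the rises were 5 cyclins and 4 peptidyl-prolyl isomerases, which the study's categories place here and which fold proteins. OS04G0563700, a cyclin, had 34.8 and 39.7 CPM at 8 d and 1.19, 1.60 and 0.845 CPM at 4 d (log2 change 4.97 ± 0.34). The member that was not called, OS01G0377500, is similar to a cyclin of the Ania-6a type, a family tied to transcription and splicing rather than to the cycle, and had 55.6 and 50.7 CPM at 8 d and 41.3, 44.6 and 35.9 CPM at 4 d. Of the genes for DNA synthesis and chromatin, 18 of 38 rose and 2 fell (1 fell with total counts), with a median of 1.03. Of the 20 members described without selection on these libraries, 7 rose and 1 fell. Over all genes so described, 25.3% rose and 10.9% fell. RPA70B (OS03G0214100), a subunit of the single-strand binding protein of replication and repair, had 46.7 and 56.9 CPM at 8 d and 4.62, 5.42 and 7.28 CPM at 4 d (log2 change 3.17 ± 0.31, FDR = 2.65e-11). CDT1A (OS04G0185100), which licenses replication origins, had 19.1 and 17.3 CPM at 8 d and 3.17, 3.47 and 1.24 CPM at 4 d (log2 change 2.80 ± 0.33, FDR = 2.87e-09). Core histones were mixed, with 4 of 13 higher, 1 lower and 8 not called (30.8% higher, against 35.2% over all described genes). The histone H2A gene OS01G0502700 had 26.5 and 27 CPM at 8 d and 0.623, 0.978 and 0.845 CPM at 4 d, and the H2B gene OS01G0153100 had 114 and 118 CPM at 8 d and 50.6, 54.7 and 53.3 CPM at 4 d. Another H2B gene, OS01G0152300, had 139.5 and 134 CPM at 8 d and 126, 134 and 102 CPM at 4 d, and its days overlapped.

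Most described transcripts of seed reserves fell. Of the storage protein and oleosin genes, 3 of 14 rose and 11 fell, with a median of -3.27 (-3.24 with the undetected members at their bounds). All 11 falls were genes described only through the selection on these libraries, and the 1 member described without it rose. Glutelin OS02G0453600 had 2.62 and 2.98 CPM at 8 d and 105, 91.5 and 83.6 CPM at 4 d (log2 change -5.05 ± 0.36). Prolamin 7 (OS05G0328800) had 13.1 and 14.2 CPM at 8 d and 309, 213 and 180.2 CPM at 4 d, and the 10 kDa prolamin OS03G0766100 had 5.95 and 6.35 CPM at 8 d and 79.1, 47.5 and 52.9 CPM at 4 d. Prolamin and glutelin genes exist in near-identical copies, so counts of single members are uncertain. OS01G0111900, annotated as a glutelin family protein, went the other way with 194 and 175 CPM at 8 d and 92.6, 95.3 and 85.2 CPM at 4 d; its log2 change of 1.02 ± 0.15 missed the fold threshold without 8 d replicate 2 (0.94) or 4 d replicate 3 (0.97). Granule-bound starch synthase I (OS06G0133000), which makes amylose, had 0.887 and 0.480 CPM at 8 d and 44.2, 33.7 and 34.6 CPM at 4 d (log2 change -5.80 ± 0.52). OS01G0911700, similar to VIVIPAROUS1, a regulator of seed maturation and abscisic acid response, had 20.4 and 13.4 CPM at 8 d and 94.6, 86.3 and 82.6 CPM at 4 d (log2 change -2.38 ± 0.33).

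Of the aspartate proteases and their relatives, 5 of 8 were lower and 0 higher (2 higher with total counts), with a median of -2.99. Neither of the 2 members described without selection on these libraries was called. OS05G0403000 had 22.3 and 7.38 CPM at 8 d and 679.7, 574 and 632 CPM at 4 d, and OS05G0403300 had 36.6 and 10.02 CPM at 8 d and 847, 820.1 and 797 CPM at 4 d (log2 change -5.15 ± 0.53). OS01G0937100, similar to a xylanase inhibitor that shares the fold of these proteases, had 101 and 66.8 CPM at 8 d and 915, 759 and 716 CPM at 4 d. In the first pair, 8 d replicate 2 was closer to 4 d than replicate 3. Cysteine proteases moved mostly upward (6 of 10, with 1 lower). The member that fell, OS01G0907600, annotated as a negative regulator of cell death, had 1316 and 939.6 CPM at 8 d and 5153, 5077 and 5040.5 CPM at 4 d (log2 change -2.17 ± 0.29). Among the rises, the papain-type protease OS04G0107700 had 27.4 and 32.3 CPM at 8 d and no read at 4 d, at least 112-fold higher. A pair of entries annotated as similar to a threonine endopeptidase also had no read at 4 d: OS06G0264800 had 107 and 89.4 CPM at 8 d (at least 368-fold) and OS02G0731600 had 63 and 50.6 CPM at 8 d (at least 213-fold).

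In the fermentation group a pair of pyruvate decarboxylase entries fell, while 4 aldehyde dehydrogenases rose. PDC1 (OS05G0469600), a pyruvate decarboxylase that turns pyruvate into acetaldehyde on the way to ethanol, had 20.8 and 5.25 CPM at 8 d and 968, 825 and 948 CPM at 4 d (log2 change -6.15 ± 0.59, FDR = 1.89e-11). OS05G0469800, a pyruvate decarboxylase entry beside it, had 2.28 and 1.30 CPM at 8 d and 214, 168 and 179 CPM at 4 d (log2 change -6.73 ± 0.48, FDR = 1.30e-14). The identifiers of the pair are adjacent and their sequences may be alike, so the split of reads between them is uncertain. Their days did not overlap, and replicate 2 was the higher 8 d library in each. Over the whole group 4 of 9 rose and 3 fell, with a median of 0.38 (0.18 with the undetected members at their bounds). All 4 rises were aldehyde dehydrogenases, which oxidise acetaldehyde or other aldehydes, and OS01G0591000 among them had 16.7 and 14.6 CPM at 8 d and 0.260, 0.0889 and 0 CPM at 4 d. No value is given here for the alcohol dehydrogenases that the study names, so the last step to ethanol is not described.

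Sugar metabolism showed single genes rather than a shared direction. Of the genes for starch and sucrose breakdown, 3 of 8 rose and 2 fell (1 fell with total counts, without 8 d replicate 3 or without 4 d replicate 1). Fructokinase OS01G0894300, which passes fructose from sucrose into glycolysis, had 57.2 and 45.2 CPM at 8 d and 1175, 1163 and 1197 CPM at 4 d (log2 change -4.53 ± 0.17, FDR = 9.03e-22). Hexokinase OS01G0190400 had 136 and 126 CPM at 8 d and 273, 269 and 256 CPM at 4 d, and its change of -1.02 ± 0.14 was under the fold threshold in 7 of 12 alternatives, among them DESeq2 (-0.91), total counts (-0.59), and the fits without 8 d replicate 3 (-0.96) or 4 d replicate 1 (-0.999). Among sugar transporters 3 of 7 rose and 1 fell (2 fell without 8 d replicate 2). The hexose transporter MST4 (OS03G0218400) had 10.3 and 7.72 CPM at 8 d and 75.6, 46.1 and 107 CPM at 4 d (log2 change -3.09 ± 0.37, FDR = 5.34e-09). The monosaccharide transporter OS07G0559700 had 85 and 81 CPM at 8 d and 20.7, 20.001 and 39.5 CPM at 4 d (log2 change 1.63 ± 0.28). MYBS1 (OS01G0524500), a MYB factor that activates alpha-amylase under sugar starvation, had 19.8 and 16.6 CPM at 8 d and 1.92, 1.24 and 0.910 CPM at 4 d (log2 change 3.70 ± 0.28, FDR = 5.85e-14). Of the genes for lipid beta-oxidation, 5 of 7 rose and 0 fell. Peroxisomal acyl-CoA oxidase OS01G0159400 had 54.5 and 58.5 CPM at 8 d and 8.99, 7.38 and 8.84 CPM at 4 d, and the multifunctional protein OS01G0348600 had 94.7 and 124 CPM at 8 d and 55.7, 60.3 and 56 CPM at 4 d, where the change of 0.93 ± 0.11 was just under the fold threshold (over it in 5 of 12 alternatives: 1.05 with DESeq2, 1.36 with total counts, 1.15 with 5 counts added, 1.02 from the 11 libraries of the line and 1.12 without 8 d replicate 2).

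Genes of ethylene and jasmonate synthesis and signalling were called in both directions. For ethylene synthesis, 4 of 8 rose and 0 fell (2 rose without 8 d replicate 2). The ACC synthase OS03G0727600, which makes the ethylene precursor, had 23.3 and 19 CPM at 8 d and 0, 0 and 0.130 CPM at 4 d, a ratio of counts of 481 (95% interval 133 to 3973). The ACC oxidase OS02G0771600, which releases ethylene, had 145 and 138 CPM at 8 d and 9.98, 7.82 and 7.74 CPM at 4 d (log2 change 4.04 ± 0.26). In ethylene signalling 2 of 13 rose and 4 fell; OS02G0797100, similar to the dehydration-responsive factor DREB2B, had 4.94 and 3.77 CPM at 8 d and 35.2, 33.2 and 31.6 CPM at 4 d. For jasmonate 5 of 6 rose and 1 fell. Of the plastid lipoxygenases that start this pathway, OS08G0509100 had 14.7 and 10.5 CPM at 8 d and 0.156, 0 and 0 CPM at 4 d (ratio of counts 189, interval 64.5 to 920.2), and OS08G0508800 had 10.9 and 10.2 CPM at 8 d and no read at 4 d (at least 39.5-fold). The oxo-phytodienoic acid reductases of a later step diverged, with OS01G0369900 at 0.591 and 0.206 CPM at 8 d and 8.94, 7.56 and 9.10 CPM at 4 d, and OS06G0215900 at 32.1 and 31 CPM at 8 d and 17.7, 11.7 and 15.9 CPM at 4 d; the rise of OS06G0215900 (1.05 ± 0.22) was under the threshold without 4 d replicate 2 (0.91).

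Other hormones had members in both directions. In auxin response 6 of 15 rose and 6 fell, and OS01G0764800, an enzyme that conjugates auxin to amino acids, had 36 and 29.98 CPM at 8 d and 107, 119 and 125 CPM at 4 d (log2 change -1.83 ± 0.31). For gibberellin 1 of 5 rose and 2 fell. The GA 2-oxidase OS01G0209700, which inactivates gibberellins, had 15.5 and 13.1 CPM at 8 d and 0.883, 0.267 and 0 CPM at 4 d (log2 change 5.06 ± 0.56), while OS03G0760800, of the gibberellin-stimulated GAST family, had 83.7 and 82.5 CPM at 8 d and 512, 486 and 527 CPM at 4 d (log2 change -2.61 ± 0.37). In the abscisic acid group 1 of 9 rose and 2 fell, counts that became 4 and 1 with total counts, and 2 rose without 8 d replicate 3.

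In each transcription factor family given here more members rose than fell, as held over all genes tested (23.9% rose and 11.1% fell). Among members described without selection on these libraries, the families were divided. WRKY had 4 rises and 0 falls of 5 and MYB 7 and 0 of 15, whereas AP2/EREBP had 1 and 2 of 6 and bHLH 1 and 2 of 4. Among WRKY factors, known from defence and senescence, 8 of 13 rose and 0 fell; OS01G0246700 had 109.7 and 107 CPM at 8 d and 43.7, 40.9 and 43 CPM at 4 d, and OS01G0185900 had 25.4 and 22.8 CPM at 8 d and 3.69, 3.82 and 5.27 CPM at 4 d. Among MYB factors 16 of 30 rose and 3 fell, and among bHLH factors 8 of 12 rose and 2 fell (1 fell without 8 d replicate 3). OS03G0741100, a bHLH factor annotated for drought tolerance, had 57.8 and 59.7 CPM at 8 d and 0.260, 0.533 and 0 CPM at 4 d (log2 change 7.89 ± 0.40). In the AP2/EREBP family 8 of 16 rose and 3 fell (1 fell with total counts). OS02G0676800, similar to the cold and drought factor DREB1E, had 41.3 and 39.2 CPM at 8 d and 0.208, 0.889 and 0.195 CPM at 4 d (log2 change 6.72 ± 0.53). OS01G0141000, with AP2 and B3 domains, had 31.5 and 29.98 CPM at 8 d and 156, 171 and 185 CPM at 4 d (log2 change -2.47 ± 0.21), and OS01G0313300, similar to EREBP-3, had 407 and 336 CPM at 8 d and 915, 921 and 989 CPM at 4 d, with a change of -1.34 ± 0.21 that became -0.92 with total counts. GIGANTEA (OS01G0182600), a clock component that peaks late in the day, had 656 and 701 CPM at 8 d and 23.7, 41.3 and 36.3 CPM at 4 d (log2 change 4.34 ± 0.34, FDR = 9.61e-14). The hour of harvest was not given in the sources used here, so time of day and age cannot be told apart for this gene.

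Heat shock, redox and transport genes were higher at 8 d more often than lower. The same held over all genes tested (23.9% and 11.1%) and over all described genes (35.2% and 15.4%). Among members described without selection on these libraries, 2 of 13 heat stress genes rose. Of the peroxide and superoxide scavengers so described 4 of 4 rose, and of the glutathione S-transferases 3 of 4 rose and 1 fell. Of the heat stress genes 11 of 29 rose and 0 fell (1 fell without 8 d replicate 3 or 4 d replicate 3). The cytosolic small heat shock protein OS03G0266300 had 576 and 519 CPM at 8 d and 59.5, 60.2 and 61.7 CPM at 4 d (log2 change 3.18 ± 0.40), and OS03G0245800, similar to HSP26, had 135 and 149.9 CPM at 8 d and 11.2, 11.8 and 9.56 CPM at 4 d (log2 change 3.72 ± 0.75). Among catalases and other scavengers of peroxide and superoxide 7 of 9 rose and 0 fell (1 fell without 8 d replicate 2). OS01G0249200, similar to the superoxide dismutase nectarin 1, had 79.5 and 72.6 CPM at 8 d and 2.39, 1.96 and 2.47 CPM at 4 d (log2 change 5.04 ± 0.27). Other members were not called: mitochondrial manganese superoxide dismutase OS05G0323900 had 377 and 337 CPM at 8 d and 703, 682 and 675 CPM at 4 d (-0.94 ± 0.12; -1.03 and called without 8 d replicate 2), and the catalase OS03G0131200 had 157 and 143 CPM at 8 d and 198, 227 and 195 CPM at 4 d. Glutathione S-transferases were divided, with 7 of 17 higher and 4 lower, and OS03G0785900 had 83 and 55.1 CPM at 8 d and 636, 539.7 and 582 CPM at 4 d (log2 change -3.09 ± 0.35).

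In calcium signalling 11 of 20 rose and 1 fell (none fell with total counts). OS07G0681400, similar to the calcium-binding protein CAST, had 15.6 and 16.6 CPM at 8 d and 0.104, 0 and 0.260 CPM at 4 d, and the calmodulin-like OS01G0955100 had 21.9 and 18.7 CPM at 8 d and 0.312, 0.267 and 0.130 CPM at 4 d. The lone fall, calmodulin OS01G0279300, had 136 and 126 CPM at 8 d and 289.5, 311 and 291 CPM at 4 d, and its change of -1.18 ± 0.10 became -0.76 with total counts and -0.97 with 5 counts added. Of the potassium transporters 5 of 8 rose and 0 fell, and OS04G0401700, annotated for salt tolerance, had 31.7 and 33.9 CPM at 8 d and 5.35, 6.93 and 3.51 CPM at 4 d (log2 change 2.65 ± 0.29). Of the aquaporins 6 of 11 rose and 1 fell (none fell with total counts or without 8 d replicate 3).

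Among genes of basic upkeep the median log2 changes were -0.02 for RNA processing, -0.35 for vesicle transport and -0.56 for ribosomal proteins. Of the ribosomal proteins 3 of 18 rose and 4 fell, 2 with total counts: the 60S protein L23a gene OS01G0348700 had 186 and 188 CPM at 8 d and 414, 427 and 392 CPM at 4 d (-1.14 ± 0.12; -0.71 with total counts and -0.92 with 5 counts added), and the acidic protein P2a-4 gene OS01G0191100 had 166 and 184 CPM at 8 d and 389, 349 and 403 CPM at 4 d (-1.12 ± 0.12; -0.69 and -0.90). One gene of the RNA processing group stood out. The secreted ribonuclease OS09G0538000 of the T2 family, which in plants degrades RNA in vacuoles and walls, had 101 and 158 CPM at 8 d and no read at 4 d, at least 485-fold higher. OS02G0759400, with a RING-type zinc finger as in ubiquitin ligases, was likewise unread at 4 d and had 36.7 and 31.3 CPM at 8 d (at least 128-fold).

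To place the interval in the whole course, the same line was read at 2 and 14 d (3 libraries each), where the steps before and after share libraries with the change described here and are given as levels only. SUB1A had no read at 2 d and averaged 139 ± 33.3 CPM at 14 d (SD). MYBS1, RPA70B and CDT1A had their highest mean at 8 d. MYBS1 averaged 0.575 ± 0.0313 CPM at 2 d and 14.9 ± 0.776 CPM at 14 d, RPA70B 0.635 ± 0.359 and 41.4 ± 7.60 CPM, and CDT1A 2.32 ± 0.508 and 9.74 ± 1.52 CPM. GLO1 went on to 127 ± 3.58 CPM at 14 d, far above both 8 d libraries. Among the genes that fell, EXPA1 and MST4 had their highest mean at 4 d. EXPA1 averaged 1.73 ± 0.439 CPM at 2 d and 1.5 ± 0.264 CPM at 14 d, and MST4 14.5 ± 2.09 and 5.03 ± 1.33 CPM. PDC1 averaged 887 ± 41.4 CPM at 2 d, inside the range of its 4 d libraries, and 0.678 ± 0.236 CPM at 14 d. GIGANTEA (OS01G0182600) was at 29.7 ± 5.94 CPM at 2 d and 1452 ± 91.4 CPM at 14 d. Others had far lower means on the days around 8 d. The ribonuclease OS09G0538000 averaged 0.0573 ± 0.0992 CPM at 2 d and 6.33 ± 2.37 CPM at 14 d, and the peroxidase OS04G0688300 14 ± 2.77 and 64.3 ± 5.01 CPM, against 101 and 158 CPM and 1203 and 1019 CPM in the 8 d libraries.

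**Figure D3:**
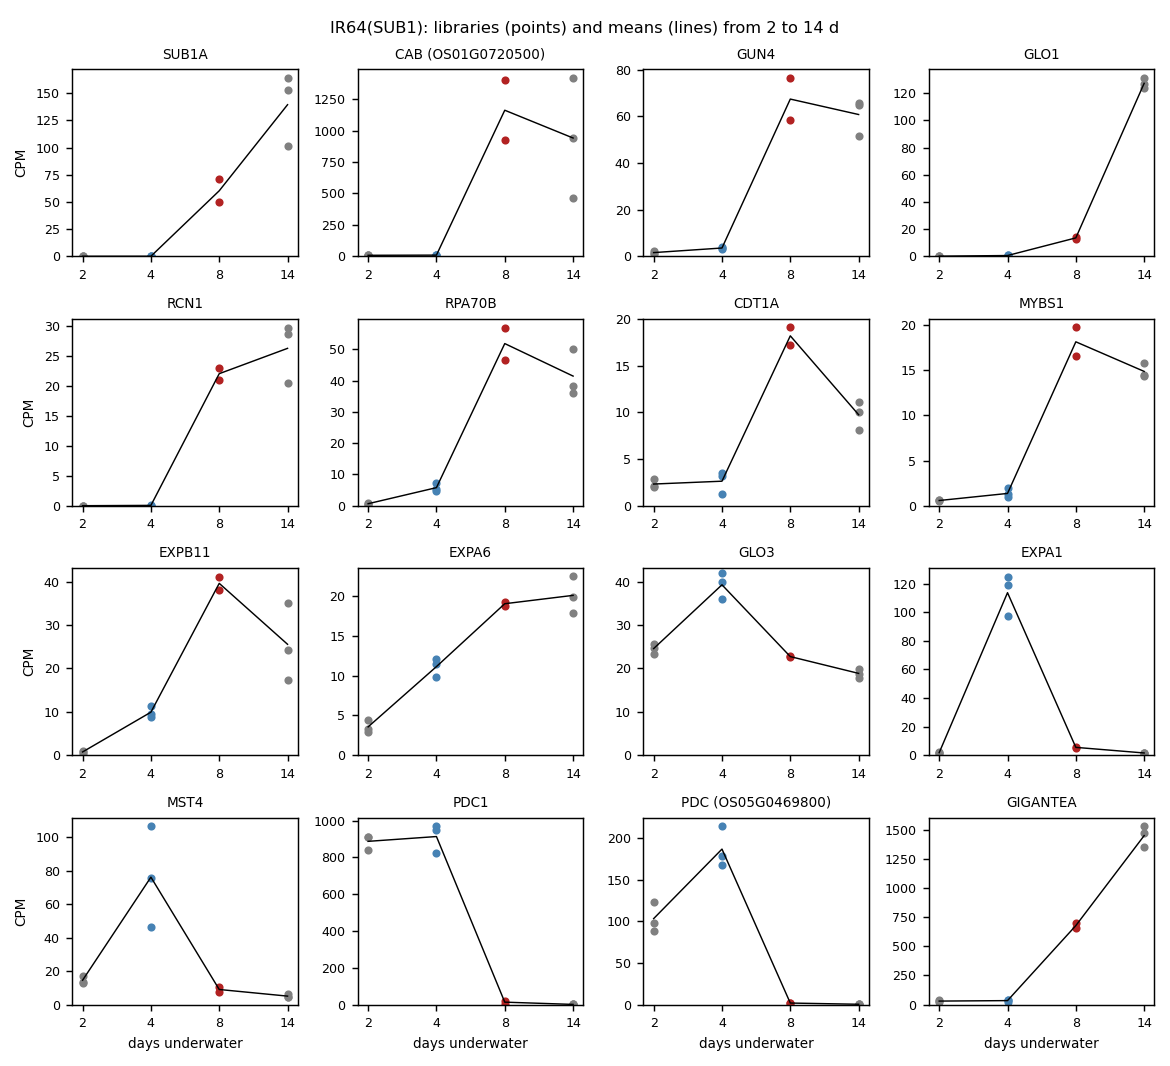
CPM of 16 genes in the IR64(SUB1) libraries at 2, 4, 8 and 14 d underwater, with a linear axis from 0 for each gene; points are libraries (blue at 4 d, red at 8 d, grey at 2 and 14 d) and lines join the means. SUB1A, GLO1 and GIGANTEA are higher at 14 d than at 8 d, whereas EXPA1 and MST4 peak at 4 d and PDC1 is near 0 after 4 d.

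Whether the change from 4 to 8 d is particular to IR64(SUB1) was asked of the 3 other lines, none of which shares a library with it. Across the 26180 genes, the log2 changes correlated at 0.865 with those of IR64(AG1,SUB1), 0.898 with IR64(AG1) and 0.871 with IR64 (Pearson; across genes, which are not replicates). Of the genes that rose in IR64(SUB1), 79.2% were also called higher in IR64(AG1,SUB1), 87.7% in IR64(AG1) and 81.1% in IR64, which made up 87.2%, 84.8% and 85.9% of the rises in those lines. For the falls the shares were lower: 58.2% were also called in IR64(AG1,SUB1), 74.2% in IR64(AG1) and 56.1% in IR64, making up 79.9%, 77.2% and 80.0% of those lines' falls. Calls in opposite directions were 3, 0 and 6. The totals were 5692 rises and 2121 falls in IR64(AG1,SUB1), 6481 and 2797 in IR64(AG1) and 5919 and 2042 in IR64.

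**Figure D4:**
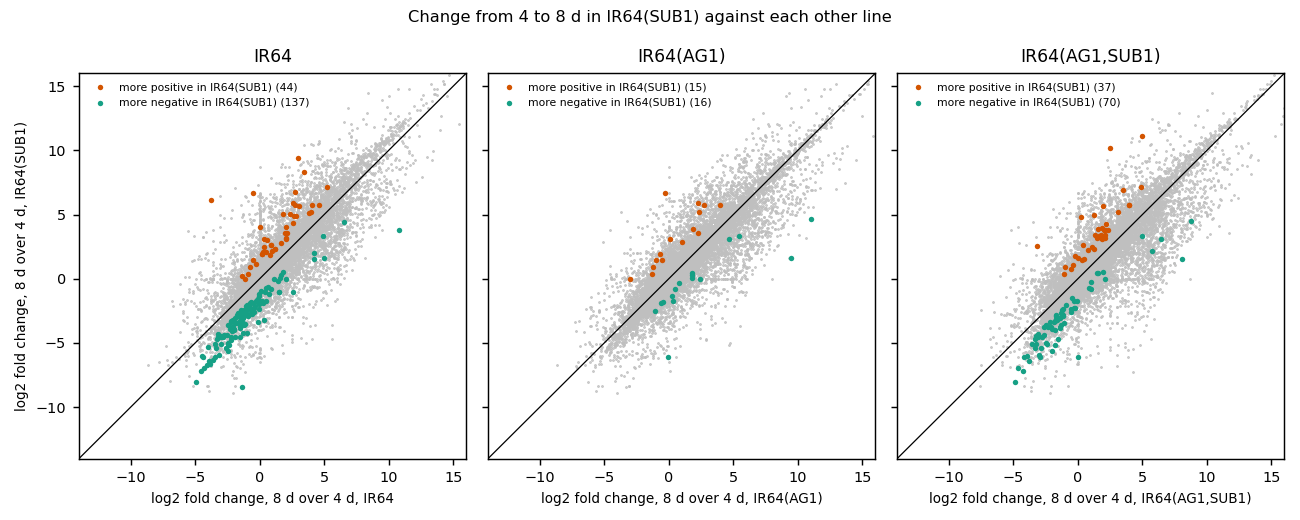
Log2 fold change from 4 to 8 d of each of 26180 genes in IR64(SUB1) (vertical) against the same in IR64, IR64(AG1) and IR64(AG1,SUB1) (horizontal), as edgeR estimates; the line marks equal change. Orange points are genes whose change was more positive in IR64(SUB1) by the interaction test (44, 15 and 37) and green points those more negative (137, 16 and 70).

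The difference between lines was tested directly by an interaction term. Relative to IR64, the change was more positive in IR64(SUB1) for 44 genes (0.168%) and more negative for 137 (0.523%), and 120 of the 137 were genes that fell in IR64(SUB1). Relative to IR64(AG1) the counts were 15 (0.0573%) and 16 (0.0611%), and relative to IR64(AG1,SUB1) 37 (0.141%) and 70 (0.267%). The 3 tests share the IR64(SUB1) libraries. The split between directions depended on the fit. DESeq2 gave 148 more positive and 197 more negative relative to IR64, 43 and 50 relative to IR64(AG1), and 117 and 128 relative to IR64(AG1,SUB1). With 5 counts added and the likelihood ratio test, the counts were 62 and 143, 41 and 22, and 65 and 60 in the same order of lines. The fit to only the 4 groups compared gave 24 and 191 relative to IR64. The totals also depended on single libraries. The 181 calls relative to IR64 became 24 without IR64(SUB1) 8 d replicate 3, 104 without its 4 d replicate 3, 65 without IR64 8 d replicate 1, 105 without IR64 4 d replicate 1, and 310 and 292 without IR64 8 d replicates 2 and 3. The 107 calls relative to IR64(AG1,SUB1) became 28 without IR64(SUB1) 8 d replicate 3, 69 without its 4 d replicate 3, 62 without IR64(AG1,SUB1) 8 d replicate 2, and 68 and 36 without IR64(AG1,SUB1) 4 d replicates 1 and 2. The 31 calls relative to IR64(AG1) ranged from 22 to 37.

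Glycolate oxidase GLO3 moved differently in IR64(SUB1) than in every other line. Its log2 change was -0.79 ± 0.20 in IR64(SUB1), against 1.00 in IR64(AG1,SUB1), 0.51 in IR64(AG1) and 0.87 in IR64. The differences were -1.79 ± 0.30 relative to IR64(AG1,SUB1) (FDR = 0.00120), -1.30 ± 0.27 relative to IR64(AG1) (FDR = 0.0276) and -1.66 ± 0.27 relative to IR64 (FDR = 0.00120). GLO3 averaged 22.7 ± 0.105 CPM at 8 d and 39.2 ± 2.98 CPM at 4 d in IR64(SUB1), and 21.5 ± 3.41 and 11.8 ± 0.140 CPM in IR64 (SD), so the lines stood apart at 4 d, while at 8 d the means differed by less than the SD in IR64. The calls relative to IR64 and IR64(AG1,SUB1) held without any single library, while the call relative to IR64(AG1) held in 5 of the 11 fits that left out a library, with differences from -1.36 to -1.22.

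Several genes of 4 d metabolism and walls fell further in IR64(SUB1) than in IR64 and IR64(AG1,SUB1). None of those given in this paragraph was called relative to IR64(AG1). Fructokinase OS01G0894300 had a log2 change of -4.53 in IR64(SUB1), -3.07 in IR64(AG1,SUB1), -3.98 in IR64(AG1) and -3.23 in IR64. It differed by -1.46 ± 0.20 relative to IR64(AG1,SUB1) (FDR = 1.47e-04) and by -1.29 ± 0.19 relative to IR64 (FDR = 2.79e-04), and both calls held in every fit that left out a library. Relative to IR64(AG1) the fructokinase difference was -0.55 ± 0.19 and did not pass the test (FDR = 0.442). The pectin acetylesterase OS04G0602500 differed by -2.06 ± 0.30 relative to IR64(AG1,SUB1) (FDR = 2.95e-04) and by -1.503 ± 0.281 relative to IR64 (FDR = 0.00365); without IR64(SUB1) 8 d replicate 3, the difference from IR64 was -1.19 and not called. OS03G0788700, with the FAS1 domain of arabinogalactan proteins of the wall, had a log2 change of -5.04 in IR64(SUB1) and -2.45 in IR64 (difference -2.59 ± 0.46, FDR = 0.00214), and that call too was lost without IR64(SUB1) 8 d replicate 3 (-2.04).

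A pyruvate decarboxylase also fell further in IR64(SUB1) than in IR64. OS05G0469800 had a log2 change of -6.73 in IR64(SUB1), -4.58 in IR64(AG1,SUB1), -5.68 in IR64(AG1) and -4.10 in IR64, and the difference from IR64 was -2.62 ± 0.54 (FDR = 0.0105). The call was lost without IR64(SUB1) 8 d replicate 3 or IR64 8 d replicate 1, where the difference ranged from -3.05 to -2.25 over the fits that left out a library. PDC1 differed from IR64 by -2.30 ± 0.61, which missed the threshold (FDR = 0.0545).

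Of the 10 expansins tested, 2 were called as changing differently in IR64(SUB1) than in IR64. EXPA1 had a log2 change of -4.39 in IR64(SUB1) and -2.56 in IR64, a difference of -1.83 ± 0.40 (FDR = 0.0147). The change was -4.22 in IR64(AG1) and -3.10 in IR64(AG1,SUB1), and neither difference from IR64(SUB1) was called (-0.18 ± 0.40 and -1.29 ± 0.43). EXPB11 rose by 1.99 in IR64(SUB1) and by 4.22 in IR64, a difference of -2.23 ± 0.45 (FDR = 0.00862). Relative to IR64(AG1) and IR64(AG1,SUB1), EXPB11 differed by 0.58 ± 0.40 and -1.02 ± 0.46, neither of them called (FDR = 0.852 and 0.376). It averaged 39.6 ± 2.07 CPM at 8 d and 9.91 ± 1.36 CPM at 4 d in IR64(SUB1), and 35.2 ± 11.1 and 1.93 ± 0.874 CPM in IR64, where the means differed at 4 d by more than the SDs and at 8 d by less than the SD in IR64. The EXPA1 call was lost without IR64(SUB1) 8 d replicate 3 or IR64 8 d replicate 1 (differences of -2.13 to -1.34 over the fits that left out a library), and the EXPB11 call without IR64(SUB1) 8 d replicate 3 or IR64 4 d replicate 1 (-2.64 to -1.96).

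Other genes had a more positive change in IR64(SUB1). OS03G0273800, a hydrolase of the HAD superfamily, had 129 and 130.2 CPM at 8 d and 3.53, 4.62 and 2.41 CPM at 4 d in IR64(SUB1), and its log2 change of 5.23 ± 0.22 differed by 2.14 ± 0.31 from that in IR64(AG1,SUB1) (FDR = 2.93e-04). OS04G0605300, with leucine-rich repeats, had 44.9 and 50.4 CPM at 8 d and 2.86, 3.11 and 3.84 CPM at 4 d, and differed by 2.31 ± 0.35 from IR64(AG1,SUB1) (FDR = 4.43e-04) and by 1.99 ± 0.33 from IR64(AG1) (FDR = 0.00129). The multicopper oxidase OS01G0126900 had 46.7 and 45.1 CPM at 8 d and 21.8, 16 and 12.9 CPM at 4 d, and its log2 change was 1.43 ± 0.30 in IR64(SUB1), against -0.99 in IR64(AG1) (difference 2.42 ± 0.40, FDR = 0.00127). These 4 calls held without any single library.

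The antenna gene CAB was compared in the same way. It had a log2 change of 6.99 in IR64(SUB1), 8.96 in IR64(AG1,SUB1), 9.03 in IR64(AG1) and 8.36 in IR64. The differences of -1.97 ± 0.74, -2.04 ± 0.64 and -1.37 ± 0.68 did not pass the test (FDR = 0.257, 0.356 and 0.391 in the same order of lines), which does not show that the lines changed alike. The median fitted log2 change over the photosystem group was 6.76 in IR64(SUB1), 7.44 in IR64(AG1,SUB1), 6.55 in IR64(AG1) and 5.93 in IR64. For pectin methylesterases it was -3.38 in IR64(SUB1), -2.59 in IR64(AG1,SUB1), -2.66 in IR64(AG1) and -2.22 in IR64, and these group medians were not tested.

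**Figure D5:**
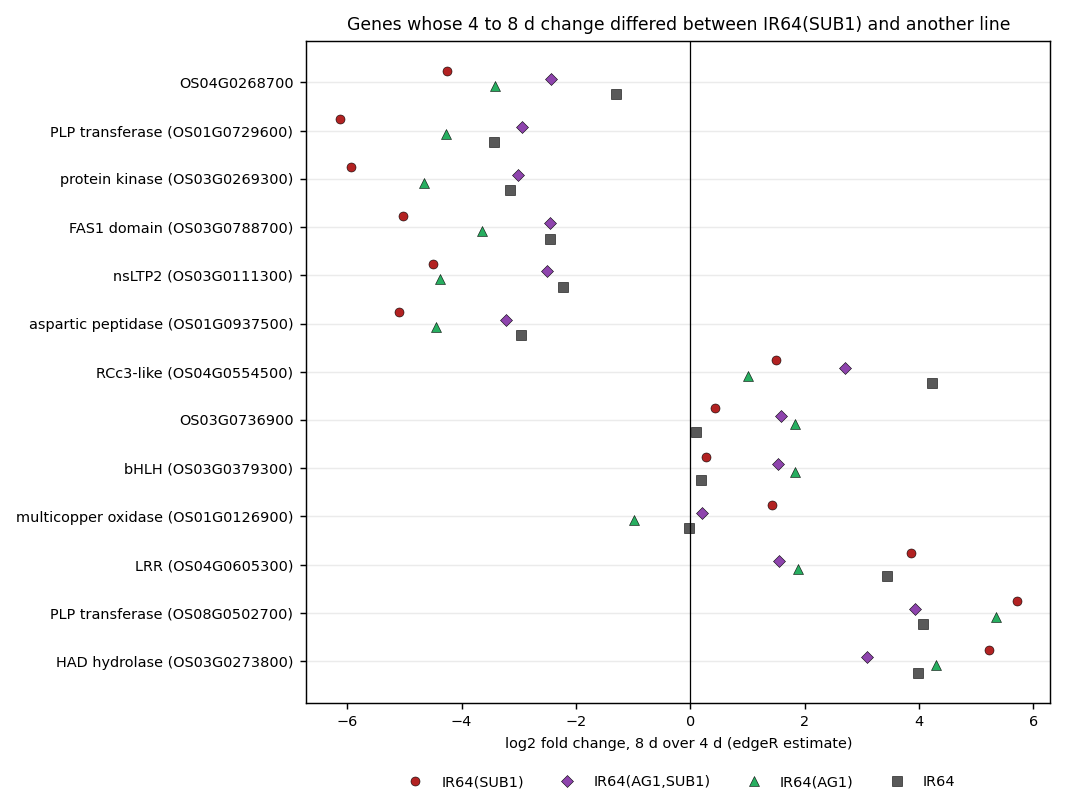
Log2 fold change from 4 to 8 d in each line (edgeR estimates; symbols as in the legend, IR64(SUB1) as red circles) for 13 genes whose change differed between IR64(SUB1) and at least 1 other line. In the upper 6 genes the fall was largest in IR64(SUB1), with IR64(AG1) next to it.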

How the data were processed

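RNA from dry-sown seedlings grown underwater was sequenced in 45 libraries of 4 lines at 2, 4, 8 and 14 d. The deposited values are raw counts per gene, which the authors obtained from trimmed read pairs aligned with Bowtie2 2.2.5 and TopHat2 2.0.14 to the Nipponbare genome IRGSP 1.0 plus the sequence of SUB1A-1, and summed over exons. Reads that fall on near-identical copies or on both SUB1A alleles cannot be separated afterwards.

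From these counts, 26180 of 35677 genes passed edgeR's filter over 16 groups (4043 had no read), and edgeR 4.0.16 (R 4.3.3) was fitted to all 45 libraries with TMM scaling and its quasi-likelihood test. Calls needed FDR < 0.05 (Benjamini-Hochberg) and a change of more than 2-fold, log2 beyond 1 or -1. Differences between lines were tested as an interaction of line and age. Folds against groups with no read use a floor of 3 counts per library, and 95% exact binomial intervals and floors cover counting error only. Total counts of 13199636 to 24657341 in the 5 libraries set the precision.

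Gene descriptions and categories came from the study's supplementary tables, because the RefSeq gene table could not be paired with the identifiers of the count table, and category patterns were adjusted after values were seen. Named are genes the study names by symbol, in each group up to 4 members (highest mean CPM or largest change), the 12 largest rises and falls with at least 20 CPM and a known product, up to 8 genes per interaction test, and tissue markers; the text gives part of these. The members and lists were chosen with earlier results of these data known.

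Alternatives were DESeq2 1.42.0, total-count scaling, no filter, 5 counts added with a likelihood ratio test, fits to fewer groups, a replicate block and leaving out each library. On simulated counts for 25234 genes, 197 of 200 changes of 4-fold between the ages were recovered with 1 false call, and 186 of 200 changes relative to IR64 with 5. These values hold for the simulated counts only. Recovery and false calls where as many genes change as the 9179 called between the days were not tested. Promoter and protein sequences were not used here.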

Additional observations from a re-analysis of the deposited data

Results flagged for a closer look

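Each result here is a gene whose change from 4 to 8 d differed between IR64(SUB1) and another line by the interaction test (edgeR, Benjamini-Hochberg FDR under 0.05 and a difference above 1 or below -1 on the log2 scale). Values are the difference in log2 change, IR64(SUB1) minus the other line, with its FDR. Each was then refitted leaving out each library of the 4 groups in turn, and OS04G0554500 has near-identical neighbours, so its counts are uncertain.

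Relative to IR64(AG1,SUB1), the calls that held in all 10 such refits were fructokinase OS01G0894300 at -1.46 (FDR = 1.47e-04), the HAD hydrolase OS03G0273800 at 2.14 (FDR = 2.93e-04), the pectin acetylesterase OS04G0602500 at -2.06 (FDR = 2.95e-04), the leucine-rich repeat gene OS04G0605300 at 2.31 (FDR = 4.43e-04) and GLO3 at -1.79 (FDR = 0.00120). The pyridoxal phosphate-dependent transferase OS01G0729600 differed by -3.19 (FDR = 0.00783) and lost the call without IR64(SUB1) 8 d replicate 3 (from -4.16 to -2.54 over the refits). The aspartic peptidase OS01G0937500 differed by -1.87 (FDR = 0.0328) and kept the call in 4 of the 10 refits (from -2.82 to -1.25). The receptor-like cytoplasmic kinase OS03G0269300 differed by -2.93 (FDR = 0.0252) and kept the call in 5 of the 10 refits (from -4.80 to -2.11). OS03G0736900 (a predicted organelle protein) differed by -1.15 (FDR = 0.0192) and kept the call in 4 of the 10 refits (from -1.29 to -0.96). The FAS1 protein OS03G0788700 differed by -2.58 (FDR = 0.00471) and lost the call without IR64(SUB1) 8 d replicate 3 or IR64(AG1,SUB1) 4 d replicate 2 (from -3.44 to -2.03 over the refits). The oxo-phytodienoic acid reductase OS06G0215900 differed by 1.45 (FDR = 0.0143) and lost the call without IR64(SUB1) 8 d replicate 3 or IR64(AG1,SUB1) 4 d replicate 1 (from 1.30 to 1.58 over the refits). The calcium-binding gene OS07G0681400 differed by 3.35 (FDR = 0.0161) and lost the call without IR64(SUB1) 8 d replicate 3 or IR64(SUB1) 4 d replicate 1 or IR64(AG1,SUB1) 4 d replicate 2 (from 2.38 to 4.29 over the refits). The peroxisomal aminotransferase OS08G0502700 differed by 1.77 (FDR = 0.0210) and kept the call in 4 of the 10 refits (from 1.61 to 1.94). Of the 6 fits with other settings, the call for OS03G0736900 (a predicted organelle protein) held in 4 and was lost with 5 counts added and in a fit to only the 4 groups compared (FDR up to 0.0558; the direction was kept). All other calls named here held in all 6 fits with other settings.

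Relative to IR64(AG1), the calls that held in all 11 such refits were the multicopper oxidase OS01G0126900 at 2.42 (FDR = 0.00127), OS03G0736900 (a predicted organelle protein) at -1.40 (FDR = 0.00133) and the leucine-rich repeat gene OS04G0605300 at 1.99 (FDR = 0.00129). The bHLH factor OS03G0379300 differed by -1.55 (FDR = 0.0351) and kept the call in 4 of the 11 refits (from -1.81 to -1.30). GLO3 differed by -1.30 (FDR = 0.0276) and kept the call in 5 of the 11 refits (from -1.36 to -1.22). The peroxidase OS04G0688300 differed by 1.75 (FDR = 0.00994) and lost the call without IR64(SUB1) 8 d replicate 2 or IR64(AG1) 4 d replicate 1 (from 1.47 to 1.92 over the refits). Of the 6 fits with other settings, the call for the bHLH factor OS03G0379300 held in 3 and was lost with total counts, with 5 counts added and in a fit to only the 4 groups compared (FDR up to 0.204; the direction was kept). All other calls named here held in all 6 fits with other settings.

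Relative to IR64, the calls that held in all 11 such refits were fructokinase OS01G0894300 at -1.29 (FDR = 2.79e-04) and GLO3 at -1.66 (FDR = 0.00120). The pyridoxal phosphate-dependent transferase OS01G0729600 differed by -2.70 (FDR = 0.0181) and lost the call without IR64(SUB1) 8 d replicate 3 or IR64 8 d replicate 1 (from -3.67 to -2.05 over the refits). The aspartic peptidase OS01G0937500 differed by -2.13 (FDR = 0.00637) and lost the call without IR64(SUB1) 8 d replicate 3 (from -3.08 to -1.51 over the refits). The pectinesterase OS02G0288100 differed by -2.86 (FDR = 0.0453) and kept the call in 3 of the 11 refits (from -5.04 to -2.01). EXPB11 differed by -2.23 (FDR = 0.00862) and lost the call without IR64(SUB1) 8 d replicate 3 or IR64 4 d replicate 1 (from -2.64 to -1.96 over the refits). The lipid transfer protein nsLTP2 (OS03G0111300) differed by -2.27 (FDR = 0.0357) and kept the call in 2 of the 11 refits (from -2.47 to -1.75). The receptor-like cytoplasmic kinase OS03G0269300 differed by -2.79 (FDR = 0.0197) and lost the call without IR64(SUB1) 8 d replicate 3 or IR64 8 d replicate 1 (from -4.66 to -1.97 over the refits). The HAD hydrolase OS03G0273800 differed by 1.25 (FDR = 0.0357) and kept the call in 5 of the 11 refits (from 0.83 to 1.46). The FAS1 protein OS03G0788700 differed by -2.59 (FDR = 0.00214) and lost the call without IR64(SUB1) 8 d replicate 3 (from -3.45 to -2.04 over the refits). EXPA1 differed by -1.83 (FDR = 0.0147) and lost the call without IR64(SUB1) 8 d replicate 3 or IR64 8 d replicate 1 (from -2.13 to -1.34 over the refits). OS04G0268700 (annotated as an eggshell family protein) differed by -2.95 (FDR = 0.0361) and kept the call in 4 of the 11 refits (from -3.59 to -2.03). The potassium transporter OS04G0401700 differed by 1.75 (FDR = 0.0171) and lost the call without IR64(SUB1) 8 d replicate 3 or IR64(SUB1) 4 d replicate 3 or IR64 8 d replicate 1 (from 1.53 to 2.18 over the refits). The RCc3-like gene OS04G0554500 differed by -2.71 (FDR = 0.0420) and kept the call in 3 of the 11 refits (from -3.11 to -2.35). The uridine kinase family gene OS04G0596900 differed by -1.30 (FDR = 0.0452) and kept the call in 1 of the 11 refits (from -1.58 to -1.04). The pectin acetylesterase OS04G0602500 differed by -1.50 (FDR = 0.00365) and lost the call without IR64(SUB1) 8 d replicate 3 (from -1.89 to -1.19 over the refits). The pyruvate decarboxylase OS05G0469800 differed by -2.62 (FDR = 0.0105) and lost the call without IR64(SUB1) 8 d replicate 3 or IR64 8 d replicate 1 (from -3.05 to -2.25 over the refits). The peroxisomal aminotransferase OS08G0502700 differed by 1.64 (FDR = 0.0253) and kept the call in 6 of the 11 refits (from 1.45 to 1.91). Of the 6 fits with other settings, the call for the pectinesterase OS02G0288100 held in 3 and was lost with DESeq2, with 5 counts added and with a replicate block (FDR up to 0.0640; the direction was kept). Of the 6 fits with other settings, the call for the HAD hydrolase OS03G0273800 held in 5 and was lost in a fit to only the 4 groups compared (FDR up to 0.122; the direction was kept). Of the 6 fits with other settings, the call for OS04G0268700 (annotated as an eggshell family protein) held in 5 and was lost with a replicate block (FDR up to 0.0531; the direction was kept). Of the 6 fits with other settings, the call for the potassium transporter OS04G0401700 held in 5 and was lost in a fit to only the 4 groups compared (FDR up to 0.0519; the direction was kept). All other calls named here held in all 6 fits with other settings.

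Most calls that were lost went without IR64(SUB1) 8 d replicate 3, which leaves replicate 2 as the lone 8 d library of this line, assumed to vary like the other groups. The causes of these differences were not tested.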

How the results depend on the processing

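The comparison of 8 with 4 d in IR64(SUB1) called 9179 genes, and 8399 to 9003 when each of the 5 libraries was left out in turn. It called 9159 with DESeq2, 9631 with total counts, 9076 without the filter on low counts, 8762 with 5 counts added, 8986 from the 5 libraries alone and 9350 from the 11 libraries of the line. The log2 change of SUB1A was 10.59 to 13.22 over the fits that left out a library.

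The counts of differences between lines were less stable. Relative to IR64 (181 genes), DESeq2 called 345, and leaving out a library gave 24 to 310. Relative to IR64(AG1) (31 genes), DESeq2 called 93, 5 added counts with the likelihood ratio test called 63, and leaving out a library gave 22 to 37. Relative to IR64(AG1,SUB1) (107 genes), DESeq2 called 245, a fit to only the 4 groups compared called 273 (64 more positive and 209 more negative), and leaving out a library gave 28 to 146. The causes of these shifts were not tested. Leaving out a library removes samples.

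Replicate numbers 2 and 3 occur on both days, and the differences between replicates 2 and 3 at 8 and at 4 d correlated at -0.0036 across genes. With a single such difference per day, this cannot tell whether replicates of the same number were paired. With a replicate block, 9107 genes were called between the days, 158 relative to IR64, 34 relative to IR64(AG1) and 126 relative to IR64(AG1,SUB1).

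Of 1080 group counts recomputed under alternatives, 1027 stayed within 1.5 times the value in the text, and of 1500 values of named genes between the days, 1469 kept their direction and side of the threshold. Of 616 values of named genes in the tests between lines, 490 did.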
